A study of Mus musculus with 18 samples.

Results

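The genes described here encode the signalling part of the T cell receptor and its nearest partners, and they were chosen by symbol from the deposited table. They are the CD3 chains Cd3d, Cd3e and Cd3g, the zeta chain Cd247, the coreceptor Cd4, the kinases Lck and Zap70 and the adaptors Lat and Lcp2, which make 9 of 36528 entries. All 9 were among the 13075 genes tested, those that reached 1 nRPKM in 3 or more libraries. An nRPKM is a read number divided by gene length and library size, with a further scaling between libraries by the authors. RNA had been sequenced from splenic CD4 T cells of NZB/W F1 females, mice bred from the NZB and NZW strains that develop a lupus-like disease, at an age of 21 to 27 weeks and with proteinuria of 30 to 100 mg/dL. The enriched cells were cultured for 48 hours at 250000 per well with 10 U/mL of IL-2. In 3 groups the medium held anti-Ox40, an IgG1, at 25 µg/mL with 0 (no beads), 0.1 (low beads) or 1 (high beads) anti-CD3/CD28 bead per cell. In the other 3 an isotype control IgG1, called control Ig here, was used at the same concentration with the same 3 bead doses. All groups therefore shared the hybrid background, the IL-2 and an IgG1 antibody, and each group had 3 libraries.

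As background, the T cell receptor has no enzyme of its own, and its CD3 and zeta chains carry the tyrosine motifs that pass the signal inward. Lck, brought close by the coreceptor, phosphorylates these motifs, Zap70 docks on them and phosphorylates the adaptors Lat and Lcp2 (also called SLP-76), and calcium, Ras and NF-kB signals follow. Ox40 is a costimulatory receptor of the TNF receptor family that appears on T cells after activation.

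An nRPKM of 1 over 1 kb stood for 26.4 to 46.0 reads per library, worked out from the steps between low values, and the smallest estimated read number for any of the 9 genes in any library was 5273 (Zap70), a counting error of 1.38%. Summed nRPKM differed with bead dose, at 273498 to 281836 without beads and 342738 to 348466 at high beads. The libraries carried the defining markers of CD4 T cells. Of 2 CD8 T cell markers, Cd8a did not exceed 0.433 nRPKM in any library, while Cd8b1 read 4.35 to 6.52 nRPKM. Replicate 3 of every group stood apart by its B cell markers. The summed level of 8 B cell genes was 32.5 and 32.9 in the anti-Ox40 and control Ig libraries numbered 3 without beads, against at most 9.48 in the other libraries without beads. At low beads it was 43.0 and 48.7, against at most 8.48, and at high beads 6.85 and 11.8, against at most 4.53. Summed myeloid markers (7 genes) spanned 239 to 338 nRPKM without beads and 4.99 to 11.4 at high beads, and in bulk RNA fewer cells of a type and less RNA per cell cannot be told apart. Their part in the results of the 9 genes was not tested, except that the main results are also given without the 6 libraries numbered 3. Since the labels do not say whether the replicates came from separate mice or cultures, the p-values measure only the spread between libraries.

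Cd3d, Cd3e and Cd3g are neighbours on chromosome 9 of GRCm38. Cd3g lies at 44969572 to 44980431, Cd3d at 44981769 to 44987052 and Cd3e at 44998735 to 45009663. The start sites of Cd3g and Cd3d are 1355 bases apart and face away from each other, those of Cd3d and Cd3e are 27825 bases apart, and no protein-coding gene lies between either pair. The other members lie apart from them, with Cd247 on chromosome 1 (165779952 to 165871153) and Zap70 also on chromosome 1 (36761798 to 36782821). Cd4 is on chromosome 6 (124864693 to 124888247), Lck on chromosome 4 (129548344 to 129573641), Lat on chromosome 7 (126363827 to 126369705) and Lcp2 on chromosome 11 (34046928 to 34092281). The promoter windows of the 3 CD3 genes, which fell together with anti-Ox40 at high beads, and of Lcp2, which rose there, are shown here from RefSeq (GRCm38.p6), from 250 bases before to 50 bases after the start. Capitals mark matches to AGGAAGT, the core bound by ETS factors, and to CACCTG, an E-box, each searched on both strands and without overlap between them.
Cd3d, chr9:44981536-44981835 (+ strand): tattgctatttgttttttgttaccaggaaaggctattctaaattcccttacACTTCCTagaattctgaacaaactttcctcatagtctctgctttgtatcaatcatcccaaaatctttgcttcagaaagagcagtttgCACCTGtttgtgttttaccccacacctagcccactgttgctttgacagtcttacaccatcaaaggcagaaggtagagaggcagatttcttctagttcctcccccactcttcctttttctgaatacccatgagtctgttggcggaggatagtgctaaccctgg
Cd3e, chr9:45009562-45009861 (- strand): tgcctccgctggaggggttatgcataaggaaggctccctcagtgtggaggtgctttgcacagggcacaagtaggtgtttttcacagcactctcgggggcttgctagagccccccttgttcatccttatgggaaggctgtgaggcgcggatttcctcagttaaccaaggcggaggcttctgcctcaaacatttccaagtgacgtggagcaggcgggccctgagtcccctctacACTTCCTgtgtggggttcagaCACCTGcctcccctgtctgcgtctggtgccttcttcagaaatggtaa
Cd3g, chr9:44980382-44980681 (- strand): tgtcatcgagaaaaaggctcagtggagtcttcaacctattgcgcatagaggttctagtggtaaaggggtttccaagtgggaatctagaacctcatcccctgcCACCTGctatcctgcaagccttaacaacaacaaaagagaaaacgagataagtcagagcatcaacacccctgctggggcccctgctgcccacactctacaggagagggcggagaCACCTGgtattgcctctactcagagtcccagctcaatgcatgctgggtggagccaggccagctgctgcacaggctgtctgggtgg
Lcp2, chr11:34046678-34046977 (+ strand): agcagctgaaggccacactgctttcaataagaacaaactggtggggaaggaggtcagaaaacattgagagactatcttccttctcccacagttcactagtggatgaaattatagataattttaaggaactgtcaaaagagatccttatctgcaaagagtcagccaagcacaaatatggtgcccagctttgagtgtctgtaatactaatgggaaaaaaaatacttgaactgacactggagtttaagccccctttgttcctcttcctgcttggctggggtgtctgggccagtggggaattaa
The motifs were picked with these sequences in view, so the matches are a description. Windows were found for 8 of the 9 genes, 11 windows in all, since Lck and Zap70 have more than one start. At least 1 ETS core was present in 4 genes (Cd3d, Cd3e, Cd247 and Lck) and at least 1 E-box in 6 (these 4, Cd3g and Zap70), while the windows of Lat and Lcp2 held neither. Among 32851 promoter windows of the same length, 9.4% held the ETS core and 20.2% the E-box.

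The first comparison set anti-Ox40 against control Ig at each bead dose. At high beads, 6 of the 9 genes passed the test, against 26% of all tested genes. The 3 CD3 chains, Cd247 and Zap70 were lower with anti-Ox40 (11.6% of all genes were called lower) and Lcp2 was higher (14.4% were called higher). The median difference of the 9 genes was -0.20 on the log2(nRPKM + 1) scale, against 0.00430 over all genes. The test was limma with adjustment by Benjamini-Hochberg over all tested genes, and a gene was called at an adjusted p under 0.05. Without the libraries numbered 3, 4 of the 9 stayed called, since Cd247 (-0.19, adjusted p = 0.0668) and Zap70 (-0.23, adjusted p = 0.0538) did not, in a fit with fewer libraries that called 1376 genes in place of 3397.

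Cd3d, which pairs with Cd3e in the receptor, read 112, 128 and 130.4 nRPKM in the anti-Ox40 cultures at high beads, against 157, 162 and 170.1 nRPKM in control Ig. Every anti-Ox40 library lay below every control Ig library. The difference was -0.40 on the log2 scale (SE 0.06, limma adjusted p = 0.000311), a ratio of 0.759. In the other 2 bead doses the ranges overlapped, with means of 153 ± 3.92 and 161 ± 7.64 nRPKM for anti-Ox40 and control Ig without beads and 158 ± 5.84 and 164 ± 10.5 at low beads (SD, n = 3 each). Of the 6 groups, the anti-Ox40 group at high beads was the lowest, and the neighbours among the other 5 did not separate.

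Cd3e, which forms dimers with both Cd3d and Cd3g, was at 159, 176 and 177 nRPKM with anti-Ox40 at high beads and at 205, 217 and 230.0 nRPKM with control Ig. The 2 groups did not overlap, and the difference was -0.35 (SE 0.05, limma adjusted p = 0.000338). Group means were lower at each higher bead dose in both arms. With anti-Ox40 they were 244 ± 9.55, 236 ± 7.94 and 171 ± 9.91 nRPKM at no, low and high beads, and with control Ig 257 ± 4.16, 236 ± 11.4 and 218 ± 12.3 nRPKM (SD, n = 3 each). The anti-Ox40 group at high beads lay below all other groups, the control Ig group at high beads reached into the control Ig range at low beads, and without beads the anti-Ox40 libraries were all below those of control Ig.

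Cd3g, the partner of Cd3e in the other CD3 dimer, had the largest fall of the 9 genes with anti-Ox40 at high beads. It measured 182, 220.3 and 223 nRPKM with anti-Ox40 and 267, 290.3 and 306 nRPKM with control Ig, a difference of -0.47 (SE 0.08, limma adjusted p = 0.000462) and a ratio of 0.723. The groups were again separate. Replicate 1 was the lowest library of its group at high beads for Cd3d, Cd3e and Cd3g alike, in anti-Ox40 and in control Ig. Outside the anti-Ox40 group at high beads, Cd3g stayed between 267 and 325 nRPKM in all 15 libraries, and the ranges of neighbouring groups overlapped.

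Cd247, whose zeta chain carries the most tyrosine motifs of the receptor and is encoded away from the CD3 genes, moved less. It was at 41.2, 44.0 and 43.8 nRPKM with anti-Ox40 and at 48.3, 48.8 and 51.7 nRPKM with control Ig at high beads. These groups did not overlap and differed by -0.20 (SE 0.04, limma adjusted p = 0.00211), with the limit given above for the libraries numbered 3. Across all 6 groups its means lay between 43.0 and 53.8 nRPKM, the lowest being anti-Ox40 at high beads.

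**Figure D1:**
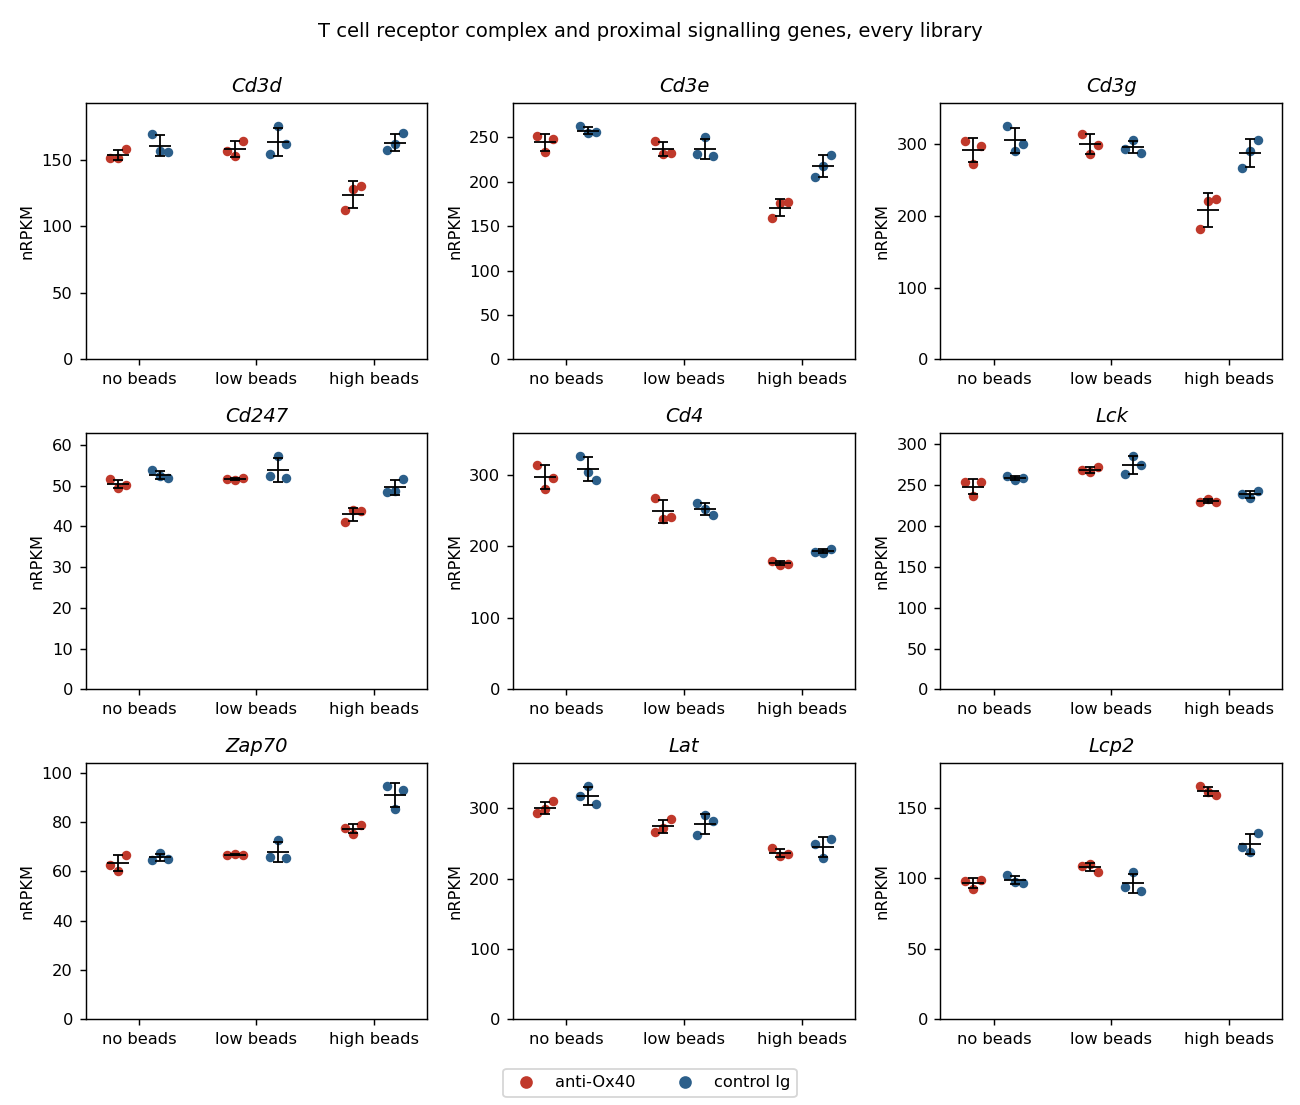
Level of each gene in nRPKM (vertical axes from 0) in every library at no, low and high beads, with points for libraries (anti-Ox40 left, control Ig right of each pair) and black bars for the mean and SD of 3. Cd3d, Cd3e, Cd3g, Cd247 and Zap70 lie lower and Lcp2 lies higher in the anti-Ox40 libraries at high beads, while Cd4 declines with bead dose in both arms.

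Cd4, the coreceptor that brings Lck to the complex, was at 179, 174 and 175 nRPKM with anti-Ox40 and at 192, 191 and 197 nRPKM with control Ig at high beads. Although these libraries did not overlap, the difference of -0.13 (SE 0.05) missed the threshold at a limma adjusted p of 0.0829. It passed with equal upper quartiles (adjusted p = 0.0331), with quantile normalization (0.0274) and in a fit to these 2 groups alone (0.0253). In the other 13 of 16 settings it was not called, with a limma adjusted p of up to 0.373. Cd4 varied mainly with the beads, with means of 297 ± 16.4, 248.9 ± 15.9 and 176 ± 2.61 nRPKM in anti-Ox40 and 308 ± 16.6, 252 ± 8.48 and 193 ± 3.07 nRPKM in control Ig cultures at no, low and high beads (SD, n = 3 each).

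Lck, the Src-family kinase that starts the cascade, read 229, 233 and 229 nRPKM with anti-Ox40 at high beads, against 239, 234 and 243 nRPKM with control Ig, and the difference of -0.05 was not called (95% interval -0.13 to 0.03, limma adjusted p = 0.393). The groups were separate by less than 1 nRPKM. On the authors' scale Lck was highest at low beads in both arms, at 269 ± 3.53 nRPKM with anti-Ox40 and 274 ± 11.1 with control Ig (SD, n = 3 each). With equal sums and with quantile normalization, low against no beads in anti-Ox40 was at -0.03.

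Zap70, the kinase that binds the phosphorylated CD3 and zeta chains, had its highest levels at high beads on the authors' scale. In anti-Ox40, high against no beads was at -0.03 with equal sums and -0.15 with quantile normalization. At high beads Zap70 read 77.6, 75.2 and 79.0 nRPKM with anti-Ox40 and 94.5, 85.4 and 92.8 nRPKM with control Ig. The anti-Ox40 libraries were all below the control Ig libraries, by -0.23 (SE 0.05, limma adjusted p = 0.00282). At the lower doses its group means lay between 63.2 and 67.8 nRPKM and neighbouring groups overlapped.

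Lat, the membrane scaffold that Zap70 phosphorylates, was at 243, 232 and 236 nRPKM with anti-Ox40 and 249.2, 229 and 257 nRPKM with control Ig at high beads. These ranges overlapped, and the difference of -0.05 was not called (95% interval -0.16 to 0.06, limma adjusted p = 0.553). Its means at no, low and high beads were 300.5 ± 8.70, 275 ± 9.27 and 237 ± 5.82 nRPKM with anti-Ox40 and 318 ± 12.8, 278 ± 14.1 and 245 ± 14.3 nRPKM with control Ig (SD, n = 3 each), lower at each higher dose in both arms.

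Lcp2, the cytosolic adaptor that joins Lat to its effectors, was the gene that rose. At high beads it was at 166, 161 and 159 nRPKM with anti-Ox40, against 122, 119 and 132 nRPKM with control Ig, a difference of 0.38 (SE 0.05, limma adjusted p = 0.000143) and a ratio of 1.30. The groups were well apart, and no other group reached these levels. At low beads the anti-Ox40 libraries were at 109, 110.5 and 105 nRPKM and the control Ig libraries at 94.2, 104 and 91.3 nRPKM. They too did not overlap, but the difference of 0.16 (SE 0.05) had a limma adjusted p of 0.0578. It passed without control Ig replicate 2 (0.22, adjusted p = 0.00453), and with the stricter filter, equal sums or equal upper quartiles (adjusted p of 0.0487, 0.0483 and 0.0471). In the other 12 of 16 settings it was not called, with a difference as low as 0.10 and a limma adjusted p of up to 0.385. Control Ig replicate 2 at low beads had a Malat1 level, a nuclear RNA, of 173 nRPKM, against 453 and 435 nRPKM in the other 2 libraries of its group. The part of this in the result was not tested.

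**Figure D2:**
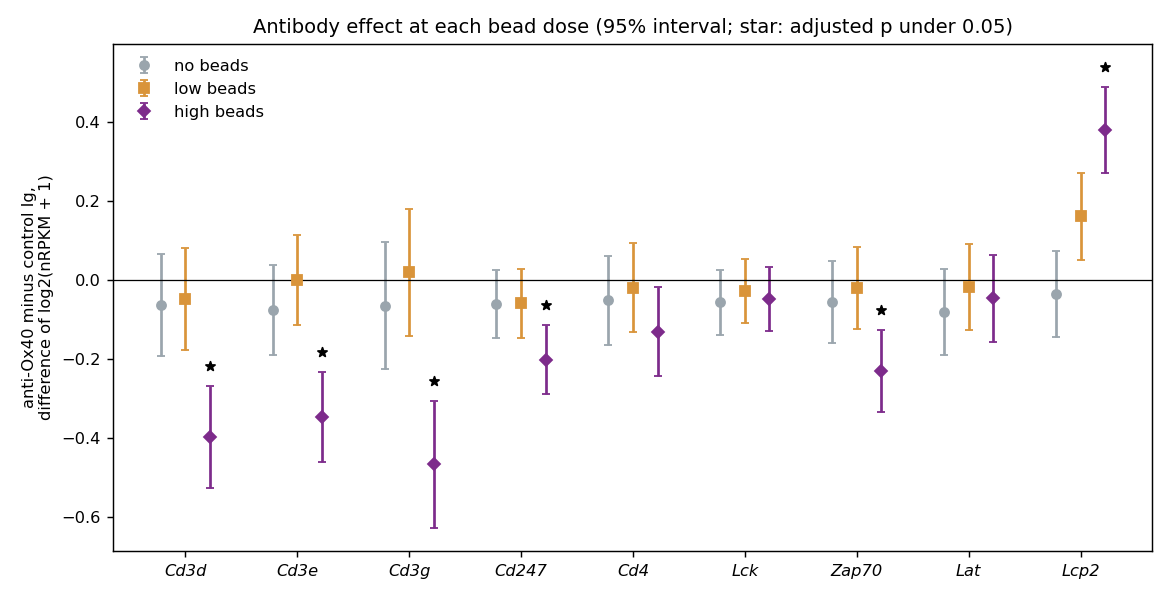
Difference of log2(nRPKM + 1) between anti-Ox40 and control Ig for each gene at the 3 bead doses, with 95% intervals and a star where the limma adjusted p is under 0.05. The 6 stars are all at high beads, with Cd3g lowest at -0.47 and Lcp2 highest at 0.38.

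At low beads, 0 of the 9 genes were called by limma, against 9.59% of all tested genes (6.15% higher, 3.44% lower), and 1 of them, Lcp2, had an unadjusted p under 0.05. Without beads, 0 of the 9 were called, against 0.138% of all genes, and 0 had an unadjusted p under 0.05, against 519 of 13075 genes. The means were lower with anti-Ox40 for all 9 genes without beads, with differences between -0.08 and -0.04 and 95% intervals that all included 0. Their median was -0.06, against -0.0077 over all genes. Summed nRPKM without beads was 273498 to 279884 with anti-Ox40 and 278169 to 281836 with control Ig. Of the 9, the libraries of Cd3e, Cd247 and Lck did not overlap between the antibodies without beads, by small gaps. How many of all genes separated in this way was not counted. At low beads the differences of the genes other than Lcp2 lay between -0.06 and 0.02. The Cd247 libraries did not overlap there either, at 51.3 to 51.8 nRPKM with anti-Ox40 and 52.0 to 57.2 nRPKM with control Ig. The p-values do not show that levels were equal, and the widest interval, that of Cd3g without beads, ran from -0.23 to 0.095.

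The antibody effect itself was compared between doses as an interaction in the same limma model. Between high and no beads it differed for 4 of the 9 genes, against 11.1% of all genes (6.4% higher, 4.7% lower), with Cd3d at -0.33 (adjusted p = 0.0237), Cd3e at -0.27 (0.0342) and Cd3g at -0.40 (0.0273), all lower, and Lcp2 at 0.42 (0.00421), higher. Between high and low beads it differed for Cd3d (-0.35, adjusted p = 0.0401), Cd3e (-0.35, 0.0254) and Cd3g (-0.49, 0.0258), which is 3 of 9, against 3.17% of all genes (1.7% lower). Between low and no beads, 0 of 9 were called, against 0.268% of all genes, and 1, Lcp2, had an unadjusted p under 0.05. These CD3 calls sat near the threshold. None of them held without the low-value filter (adjusted p of 0.0506 to 0.0792) or without the libraries numbered 3, where Lcp2 at 0.51 had an adjusted p of 0.0731. Without the libraries numbered 3 hardly any gene was called. Between high and no beads 0.0311% of all genes were higher and 0.00778% lower, and between high and low beads 0.00778% and 0.0156%. For high against no beads at least 1 CD3 call was lost without anti-Ox40 replicate 1 or 3 or control Ig replicate 1, 2 or 3 of the cultures without beads. The same followed from leaving out anti-Ox40 replicate 1 or control Ig replicate 2 or 3 at high beads (adjusted p of 0.0501 to 0.1 where lost). The calls for high against low beads were also lost in a fit to only the groups compared (0.0624 to 0.0935), and that of Cd3d without the variance trend (0.0502). For high against low beads at least 1 call was lost without any single anti-Ox40 library or without control Ig replicate 1 or 3 at low beads. The same held for anti-Ox40 replicate 1 and control Ig replicates 2 and 3 at high beads (0.0527 to 0.11), while without control Ig replicate 2 at low beads 5 genes were called. The sign of each CD3 difference stayed negative in each of these settings.

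Ratios of 2 genes within a library do not change when a library is scaled by 1 factor. Cd247 over the mean of the 3 CD3 chains was 0.257 ± 0.0135 with anti-Ox40 and 0.223 ± 0.00640 with control Ig at high beads, and the groups were separate. At low beads the order was the other way, at 0.223 ± 0.0065 with anti-Ox40 and 0.232 ± 0.00270 with control Ig, again separate. Without beads the ratio was 0.220 ± 0.00590 and 0.218 ± 0.00510, and the groups overlapped. Cd4 over the CD3 mean was 1.06 ± 0.112 with anti-Ox40 and 0.869 ± 0.0420 with control Ig at high beads, against 1.29 ± 0.0346 and 1.28 ± 0.0353 without beads (SD, n = 3 each throughout). Thus, within a library at high beads, the CD3 RNAs were lower relative to Cd247 and to Cd4 in the anti-Ox40 cultures. Zap70 over Lck was 0.335 ± 0.0115 with anti-Ox40 and 0.381 ± 0.0153 with control Ig at high beads, while both were 0.254 without beads. Lat over Lcp2 was 3.12 ± 0.131, 2.55 ± 0.151 and 1.46 ± 0.0237 with anti-Ox40 at no, low and high beads, and 3.22 ± 0.161, 2.89 ± 0.176 and 1.97 ± 0.0611 with control Ig. These groups were separate at low and at high beads and overlapped without beads. Each separate pair had an exact 2-sided permutation p of 0.1, the smallest that 3 against 3 can give, and 0.154 after adjustment over the 20 ratio tests, so none passed.

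**Figure D3:**
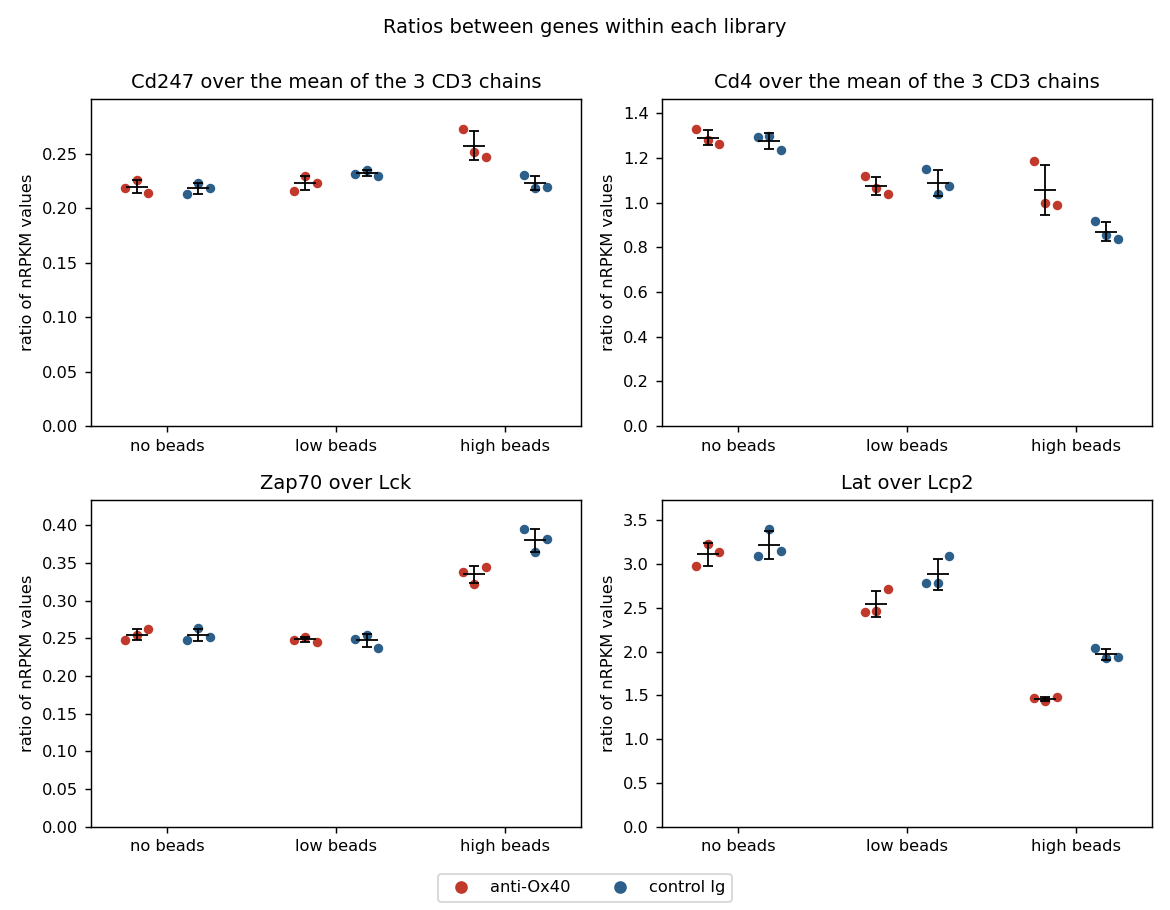
Ratios of nRPKM values within each library for 4 pairs, with points for libraries (anti-Ox40 left, control Ig right of each pair) and black bars for the mean and SD of 3. At high beads Cd247 and Cd4 relative to the CD3 chains lie higher, and Zap70 over Lck and Lat over Lcp2 lie lower, in the anti-Ox40 libraries than in control Ig.

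The CD3 genes also varied among themselves. Cd3d over Cd3e spanned 0.602 to 0.765 over the 18 libraries, with means of 0.629, 0.669 and 0.723 at no, low and high beads in anti-Ox40 and 0.624, 0.692 and 0.749 in control Ig cultures. In both arms the high bead libraries lay above the libraries without beads. Cd3g over Cd3e spanned 1.14 to 1.34. At high beads it was 1.14, 1.25 and 1.26 with anti-Ox40 and 1.30, 1.34 and 1.33 with control Ig, so that all anti-Ox40 libraries were below control Ig. These 2 ratios were described and not tested.

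The bead comparisons within each antibody asked how the receptor genes followed stimulation of CD3 and CD28. Here the scaling of the libraries mattered, since setting equal sums moved the median change of all genes for high against no beads to -0.23 in anti-Ox40 and -0.24 in control Ig cultures, while it was 0.06 and 0.04 on the authors' scale. In anti-Ox40 cultures, all 9 genes were called between high and no beads, against 84.5% of all genes (45.2% higher, 39.3% lower). Cd4 (-0.75), Cd3e (-0.51), Cd3g (-0.49), Lat (-0.34), Cd3d (-0.31), Cd247 (-0.23) and Lck (-0.10) were lower, also under equal sums, equal upper quartiles and quantile normalization. Lcp2 (0.74, limma adjusted p = 9.65e-10) was higher under all 4 scalings, whereas Zap70 (0.29) was higher on the authors' scale, at -0.03 with equal sums and lower with quantile normalization (-0.15). Relative to the median of all genes, Lcp2 stood at 0.68 on the authors' scale and 0.66 with equal sums, and Zap70 at 0.22 and 0.20. The call for Lck was lost without anti-Ox40 replicate 1 (adjusted p = 0.0738) or 3 (0.0733) of the cultures without beads, without replicate 3 at high beads (0.0503) and without all libraries numbered 3 (0.234).

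In control Ig cultures 6 of the 9 genes were called between high and no beads, against 82.3% of all genes (43.4% higher, 38.9% lower). Cd4 (-0.67), Lat (-0.38), Cd3e (-0.24) and Lck (-0.11) were lower, also under the other 3 scalings. Zap70 (0.46) was higher and stayed positive under each scaling, at 0.05 and uncalled with quantile normalization, and Lcp2 (0.33) was higher but at 0.03 with equal sums and -0.05 with quantile normalization. Cd3d (0.02), Cd3g (-0.09) and Cd247 (-0.08) were not called on the authors' scale, and each was called lower with the other 3 scalings, Cd3d at -0.27, -0.15 and -0.40 with equal sums, equal upper quartiles and quantile normalization. Relative to the median of all genes Cd3d stood at -0.02 on the authors' scale and at -0.04 with equal sums. Lck lost its call without control Ig replicate 2 at high beads (adjusted p = 0.0518) and without the libraries numbered 3 (0.089), and Cd247 gained one without control Ig replicate 3 at high beads (-0.11, adjusted p = 0.0278), where Cd3d was at -0.01. Markers of other cells moved with the beads in both arms. At high against no beads 7 of 7 myeloid markers, 5 of 5 platelet markers and 6 of 7 NK cell markers were called lower and 5 of 5 lung epithelium markers higher in anti-Ox40 and in control Ig alike, while 1 of 7 B cell markers was called lower. Summed platelet markers were 6.40 to 6.94 nRPKM at high and 56.6 to 84.3 without beads in anti-Ox40, and 9.52 to 12.9 and 55.4 to 76.2 in control Ig cultures. Summed lung epithelium markers were 27.9 to 51.9 nRPKM at high beads in anti-Ox40 and 30.2 to 117 in control Ig cultures, and at most 0.018 without beads. Cd8b1, the 1 CD8 T cell marker tested, was called lower at high against no beads in anti-Ox40 (-0.26) and not called in control Ig cultures (-0.15). The part of any of these markers in the bead changes of the 9 genes was not tested. The anti-Ox40 and control Ig comparisons share no library, and the test of their difference is the interaction given above.

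Between low and no beads, Cd4 (-0.25 in anti-Ox40, -0.28 in control Ig) and Lat (-0.13 and -0.19) were called lower in both arms, and Lck (0.11) and Lcp2 (0.16) were called higher in anti-Ox40, with Lck at -0.03 under equal sums and quantile normalization and Lcp2 at -0.01 under quantile normalization. That made 4 of 9 genes in anti-Ox40, against 70.8% of all genes (37.1% higher, 33.7% lower), and 2 of 9 in control Ig, against 62.3% (29.8% lower). In control Ig, Lck was at 0.09 (adjusted p = 0.0644) and Lcp2 at -0.04 (0.553), and the limma interaction between the arms was not called for either (Lck 0.03, adjusted p = 0.818, and Lcp2 0.20, 0.203). The anti-Ox40 calls for Lck, Lat and Lcp2 depended on single libraries. Without anti-Ox40 replicate 2 of the cultures without beads their adjusted p-values were 0.0834, 0.0598 and 0.0567. Lat was also lost without replicate 3 of the cultures without beads (0.113) and without replicate 1 (0.114) or 2 (0.0836) at low beads, and Lck without replicate 3 at low beads (0.0515). Without the libraries numbered 3, Lck and Lat were not called (0.108 and 0.122). The Cd4 calls held in every one of these settings. Between high and low beads, 9 of 9 genes were called in anti-Ox40, 2 higher and 7 lower, against 71.5% of all genes (40.3% higher, 31.2% lower), and 6 of 9 in control Ig, 2 higher and 4 lower, against 72.5% (40% higher, 32.5% lower). In anti-Ox40, Zap70 was not called with equal sums (0.04), equal upper quartiles (0.09) or quantile normalization (-0.008). In control Ig, Lcp2 was not called with quantile normalization (0.07), and Cd247 lost its call in 4 of 16 settings and Lat in 1.

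**Figure D4:**
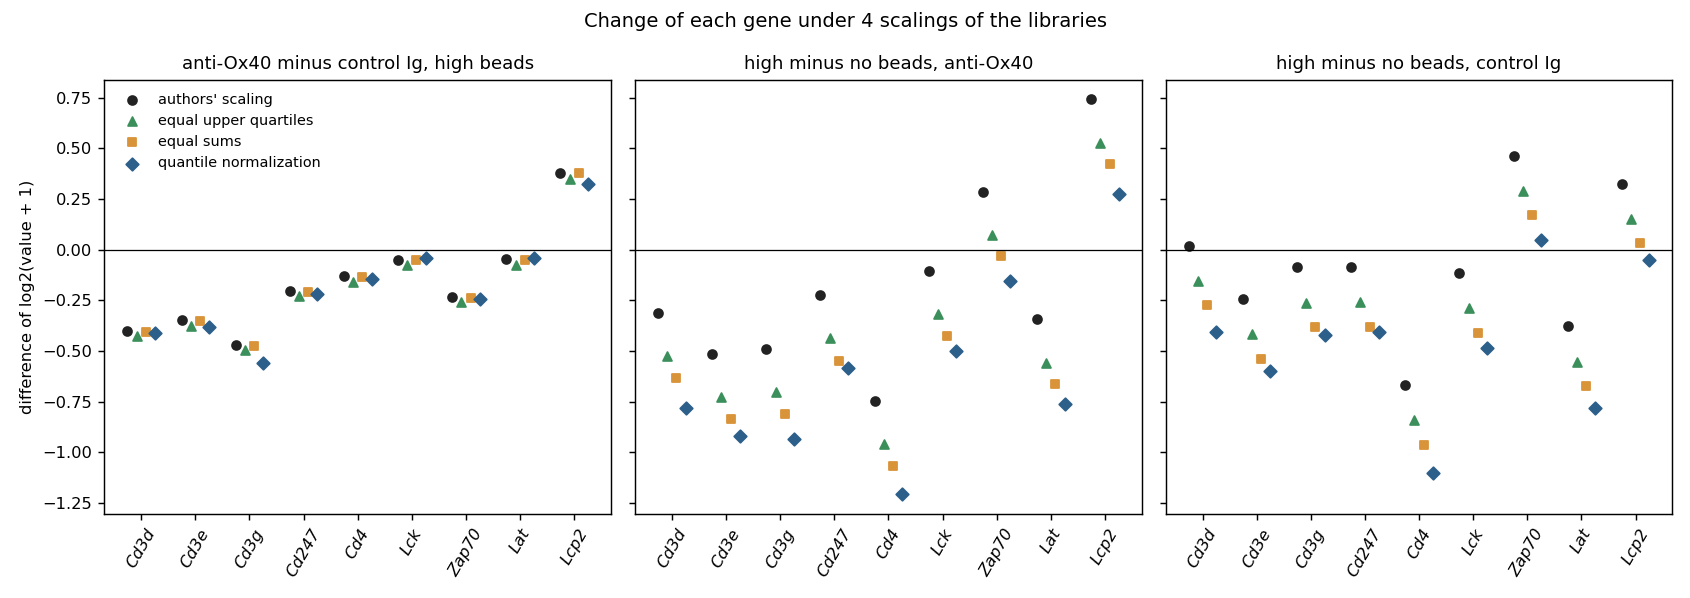
Change of each gene on the log2(value + 1) scale under the authors' scaling and 3 others, for anti-Ox40 minus control Ig at high beads (left) and for high minus no beads in anti-Ox40 (middle) and control Ig (right). The antibody differences hardly move, whereas the bead differences shift down, with Zap70 crossing 0 in anti-Ox40 and Cd3d and Lcp2 crossing 0 in control Ig.

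Other genes of the pathway were taken from lists by role, none of which includes the 9 genes. The lists were chosen with earlier results of these data known, so their counts are a description. For anti-Ox40 against control Ig at high beads, the counts of each list stand against 11.6% of all tested genes lower and 14.4% higher. Among T cell receptor genes and surface receptors that tune its signal, 6 of 10 tested genes were lower and 1 was higher with anti-Ox40 at high beads, with a median of -0.23 against 0.00430 for all genes. Cd27, a costimulatory receptor of the TNF receptor family, averaged 56.3 ± 4.06 nRPKM with anti-Ox40 and 78.7 ± 6.67 with control Ig (-0.47, limma adjusted p = 0.000123). The phosphatase CD45, encoded by Ptprc (-0.38), and its partner Ptprcap (-0.30) were lower, and Cd226, an adhesion receptor that costimulates T cells, was higher (0.46). Of 9 other kinases, 4 were lower and 1 was higher. The Tec-family kinase Txk was at 5.51 ± 1.52 and 10.6 ± 2.02 nRPKM in anti-Ox40 and control Ig cultures (-0.84, adjusted p = 0.000420), the Src-family kinase Fyn (-0.32) and the protein kinase C Prkcq (-0.36) were lower, and Tec was higher (0.47).

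Among 16 other adaptors and exchange factors, 4 were lower, among them Sh2d2a (-0.32), an adaptor that binds Lck, the exchange factor Arhgef6 (-0.45) and Skap1 (-0.41), an adaptor in integrin activation, and 1 was higher, Crk (0.20). Of 18 effectors below Lat, 6 were lower and 2 higher. The lower ones included Plcg1 (-0.19), the phospholipase that Lat recruits, the calcium channel Itpr3 (-0.25) and the calcium sensor Stim1 (-0.19). Of 19 brakes on proximal signalling, 9 were lower, 1 was higher and 9 were not called, with a median of -0.17. The ubiquitin ligase Cblb averaged 22.8 ± 0.611 nRPKM with anti-Ox40 and 34.4 ± 1.49 with control Ig (-0.57, adjusted p = 1.81e-06). The phosphatase Ptpn22 was at 18.5 ± 0.744 and 29.7 ± 1.34 nRPKM (-0.66, adjusted p = 1.52e-05), and the diacylglycerol kinases Dgka (-0.62, adjusted p = 5.42e-05) and Dgkz (-0.27, 8.84e-05) were lower. All the pathway genes named here kept their sign under the other 3 scalings. Without the libraries numbered 3, the lower genes were 2 of 10 surface receptors, 2 of 9 kinases, 3 of 16 adaptors, 2 of 18 effectors and 6 of 19 brakes, and 4.54% of all genes tested in that fit were lower and 6.16% higher.

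At low beads 9.59% of all genes were called, 6.15% higher and 3.44% lower. The lists held 1 lower of 10 among the surface receptors (Cd27, -0.26), 1 higher among the 16 adaptors (Themis, 0.26) and 3 lower among the 19 brakes (Cblb at -0.25, Dgkz at -0.19 and Dgka at -0.30). Among 18 effectors Plcg1 (-0.18) and Itpr3 (-0.17) were lower and Itpr1 was higher (0.37), and no kinase was called, with 1 of 9 at an unadjusted p under 0.05. Without the libraries numbered 3, no pathway gene was called at low beads, in a fit where 0.187% of all genes were called higher and 0% lower. Without beads, limma called 0 genes of the 5 lists, and 0 had an unadjusted p under 0.05.

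**Figure D5:**
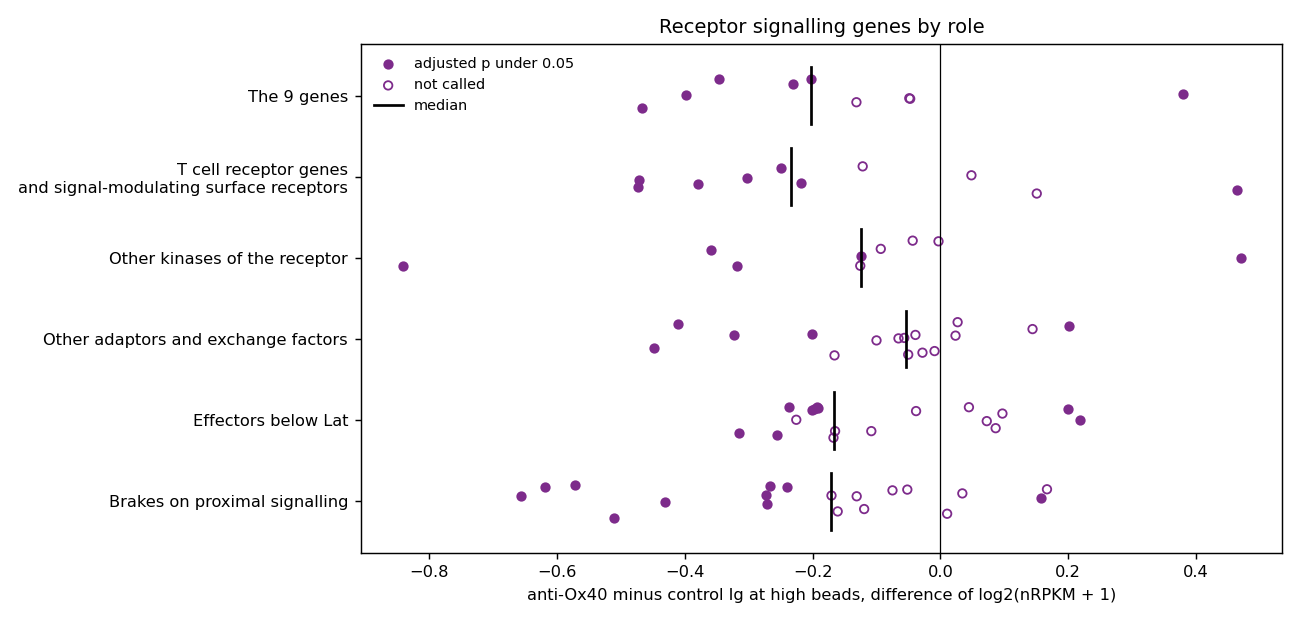
Difference of log2(nRPKM + 1) between anti-Ox40 and control Ig at high beads for the 9 genes and for 5 lists of other receptor signalling genes, with filled points for a limma adjusted p under 0.05 and black lines for medians. The medians of all 6 rows lie below 0, and filled points below 0 are 5 of the 9 genes, 6 of 10 surface receptors and 9 of 19 brakes. Of all tested genes 11.6% were called lower, and the lists were chosen with earlier results of these data known.

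In control Ig cultures at high against no beads, the same lists held called genes in both directions, and the split followed the scaling. On the authors' scale 5 of 10 surface receptors were higher and 4 lower, 2 and 5 of 9 kinases, 5 and 8 of 16 adaptors, 6 and 8 of 18 effectors and 7 and 11 of 19 brakes, and with equal sums these were 2 and 5, 1 and 7, 2 and 12, 2 and 12, and 5 and 12. Over all genes 43.4% were higher and 38.9% lower on the authors' scale, and 32.8% and 51.4% with equal sums, so that several of these counts lie near the share of all genes. Genes with large falls included Trat1 (-2.22), which encodes a transmembrane adaptor linked to the receptor, Txk (-2.24), Tespa1 (-1.98), an adaptor in thymocyte signalling, and Dgka (-1.73). The phosphatases Ptpn7 (1.27) and Ptpn6 (0.95), the adaptor Themis (0.92) and the CD45 partner Ptprcap (0.81) were higher. All 8 kept their sign under the other 3 scalings.

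Markers of other cells were read beside these results. At high beads the summed B cell markers were 4.38 to 6.85 nRPKM in anti-Ox40 and 4.41 to 11.8 in control Ig cultures, the myeloid markers 5.28 to 6.28 and 4.99 to 11.4, and the NK cell markers 79.0 to 126 and 59.5 to 95.1. Most of the NK cell sum was Gzma, at 69.6 to 119 nRPKM in anti-Ox40 and 49.8 to 80.2 in control Ig cultures, while the median difference of the 7 tested NK cell markers was -0.19. With limma, 0 of 7 B cell and 0 of 7 myeloid markers were called or had an unadjusted p under 0.05, and 0 of 7 NK cell markers were called, with 2 under 0.05. Among 5 platelet markers 1 was called lower, with sums of 6.40 to 6.94 in anti-Ox40 and 9.52 to 12.9 in control Ig cultures. Of 7 CD4 T cell markers, which include Cd4 and Cd3e, 4 were lower, with sums of 968 to 997 and 1130.5 to 1173 nRPKM. The part of any of these in the fall of the CD3 genes was not tested.

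The genes whose log2 levels followed each member most closely over the 18 libraries were listed as a description, since these libraries share 6 culture conditions. Cd3e was followed most closely by Spn (Pearson r = 0.975), Cd3d by Tmem229b (0.919) and Cd3g by Ptpn18 (0.943), with Tmem229b also among the 3 nearest for Cd3g (0.939). Cd247 was closest to Selplg (0.966) and also had Ptpn18 among its 3 nearest genes (0.958). For Cd4 the nearest was Ifngr1 (0.990), for Lck Slc16a5 (0.945), for Zap70 Gpr171 (0.958), for Lat Fam3a (0.968) and for Lcp2 Adc, Esf1 and Dnajc21, all at 0.981. Cd3d, Cd3g and Cd247 thus shared neighbours in pairs, and no gene was among the 3 nearest of both Cd3e and another member.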

How the data were processed

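RNA was measured in 18 libraries, 3 in each of 6 groups. The authors deposited 1 table of nRPKM values, RPKM values with a further scaling between libraries, for which no counts are given. The submitters' processing notes name GSNAP as the aligner and GRCm38 as the genome. Annotation, counting and scaling: not given in the sources used here. Per library, microRNA values taken as 1 to 5 reads fell within 0.1 read of whole multiples of 1 unit in 100% of cases, which gave the depth, and it covers counting error only.

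Genes that reached 1 nRPKM in 3 or more libraries were tested (13075). A mean for each group was fitted to log2(nRPKM + 1) with limma 3.58.1 in R 4.3.3 (eBayes with trend, 12 residual degrees of freedom), 2-sided, for 12 comparisons, and the method was checked on simulated data. The log scale slightly understates fold changes. Ratios and figures were made with Python 3.11.15, numpy 2.4.6, scipy 1.17.1 and matplotlib 3.10.9, and ratios were compared by exact permutation tests.

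The alternatives were pseudocounts of 0.1 and 0.5, no filter, a filter at an nRPKM of 5, no trend, a fit to only the groups compared, equal sums, equal upper quartiles, quantile normalization, leaving out each library, and leaving out the library with the most B cell marker RNA in each group. The members and lists were chosen with earlier results of these data known. All 9 members were tested in each comparison, and for some bead comparisons and interactions only called genes or counts are given. From each pathway list up to 4 called genes with the smallest adjusted p in each antibody comparison are named, with examples of the largest bead changes in control Ig. For each member the most alike tested genes are named, passing over the other members and symbols of predicted genes. The B cell, myeloid, NK cell, platelet, CD8 and CD4 T cell markers are given in the text. Among gamma-delta T cell markers 1 was tested and 0 were called at high beads, dendritic cell markers had summed levels of at most 2.30 nRPKM, and lung epithelium markers were called higher with anti-Ox40 at low beads (5 of 5, sums of 37.8 to 211 against 0.014 to 25.3 nRPKM), and 0 of 5 were called at high beads. 1 of the pathway genes is not reported by name here. Replicate numbers follow the order of accession and are not given by the labels. They were not used in the model, although the libraries numbered 3 stood apart by B cell markers in every group.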

Additional observations from a re-analysis of the deposited data

Results flagged for a closer look

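The difference between anti-Ox40 and control Ig was itself different between bead doses for 4 of the 9 genes, by a test of that difference in the limma model. Between high and no beads it was -0.33 for Cd3d, -0.27 for Cd3e and -0.40 for Cd3g on the log2(nRPKM + 1) scale, and 0.42 for Lcp2. Between high and low beads it was -0.35 for Cd3d, -0.35 for Cd3e and -0.49 for Cd3g. The CD3 calls did not hold without the low-value filter or without the 6 libraries numbered 3, as the report describes, and the Lcp2 call did not hold without those 6 libraries. In the fit without those 6 libraries, 0.0311% of all genes were called higher and 0.00778% lower between high and no beads. Between high and low beads these shares were 0.00778% and 0.0156%.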

How the results depend on the processing

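Of 49 called differences of single genes, 28 kept their call and direction in all settings, 21 lost the call in at least 1 and 5 changed direction in at least 1. The 6 calls for anti-Ox40 against control Ig at high beads numbered 6 without any single library. No paired analysis was possible because the labels give no replicate numbers.

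The number of genes called (of 9) changed as follows. For the antibody effect at high against no beads it was 1 without the filter and 0 without the libraries with the most B cell marker RNA. For high against low beads it was 0 in both settings and 0 in a fit to only the groups compared. For anti-Ox40 against control Ig at low beads it was 1 with the stricter filter, equal sums or equal upper quartiles. For low against no beads it was 4, 4 and 7 in control Ig with equal sums, equal upper quartiles and quantile normalization, and 2 in anti-Ox40 without the libraries with the most B cell marker RNA. The cause was not tested, but some of these settings use fewer libraries or test more genes.

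Leaving out 1 library at a time gave 0 to 1 calls for anti-Ox40 against control Ig at low beads, 0 to 1 for its difference between low and no beads, 1 to 4 between high and no beads and 0 to 5 between high and low beads. It gave 1 to 4 calls for low against no beads in anti-Ox40 and 2 to 3 in control Ig, 8 to 9 and 5 to 7 for high against no beads, and 9 to 9 and 5 to 7 for high against low beads.

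Directions turned in these cases. In control Ig, high against no beads, Cd3d was at -0.27 (equal sums), -0.15 (equal upper quartiles), -0.40 (quantile normalization) and -0.0307 (without the libraries with the most B cell marker RNA), and Lcp2 at -0.0516 (quantile normalization). Leaving out 1 library at a time put Cd3d between -0.0109 (without control Ig replicate 3 at high beads) and 0.0594. In anti-Ox40, Zap70 was at -0.0302 (equal sums) and -0.15 (quantile normalization) for high against no beads and at -0.008 (quantile normalization) for high against low beads. For low against no beads in anti-Ox40, Lck was at -0.0322 with equal sums and -0.0329 with quantile normalization, and Lcp2 at -0.0137 with quantile normalization.

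Among ratios, leaving out 1 library turned the small differences between anti-Ox40 and control Ig. Cd247 over the CD3 mean ranged from -0.002 to 0.0039 without beads. Cd4 over the CD3 mean ranged from -0.0043 to 0.0301 without beads and from -0.0383 to 0.0182 at low beads. Zap70 over Lck ranged from -0.0037 to 0.0045 without beads and from -0.0035 to 0.0049 at low beads. With 3 libraries a group and no stated source of the replicates, differences smaller than the intervals given cannot be told from 0.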
